A study of Caenorhabditis elegans with 16 samples.

Results

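The 47 genes described here act in oocytes, germ granules and meiosis of the nematode Caenorhabditis elegans. They were taken as a named list and matched by gene symbol to the deposited table, which holds 21882 genes. All 47 were found and all 47 passed the filter on low counts, which kept 17844 genes for testing. They fall into 6 roles: 14 regulators of oocyte translation and maturation, the germline stem cell receptor gene glp-1, 11 genes of yolk uptake, eggshell and egg activation, 8 maternal RNA-binding proteins of the embryo, 5 germ granule genes, and 8 genes of meiotic chromosomes and the meiotic spindle.

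Polyadenylated RNA was sequenced from whole animals of N2 Bristol, the standard wild-type laboratory strain, kept on NGM agar plates at 20 °C. The 4 groups were day 8 animals fasted for 6 h, day 8 animals with food, young adults fasted for 6 h and young adults with food, with 4 libraries each. The series was designed to find genes that fasting changes in young but not in aged animals. All groups share the wild-type genotype, and the sources used here give neither how ageing adults were kept apart from their progeny nor the stage from which the 8 days were counted.

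The adult gonad of a C. elegans hermaphrodite is a tube in which germline stem cells divide at the far end, enter meiosis, and mature into oocytes next to the sperm store. Transcription stops as oocytes finish growing, so the embryo begins life on RNA loaded by its mother, and RNA-binding proteins decide when each stored message is translated or destroyed. Germ granules, called P granules in this species, are condensates of RNA and protein that sit at the nuclear pores of germ cells and pass to the germline founder cell of the embryo. The eggshell is built within minutes of fertilization from proteins and sugars that the oocyte has already made.

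Library totals ranged from 65.2 to 75.4 M counts (counts in units of 1e6) in fasted day 8 animals, 80.7 to 117.7 M in fed day 8 animals, 58.4 to 78.4 M in fasted young adults and 76.9 to 90.4 M in fed young adults. A gene's level is its CPM, the counts it had per 1e6 scaled counts of the library. Young libraries of a group lay close together, with a median coefficient of variation over the 47 genes of 1.64% in fasted and 2.06% in fed young adults. Day 8 libraries did not, with medians of 27.77% in fasted and 26.59% in fed animals, and libraries 1 and 2 of each feeding state stood apart from libraries 3 and 4. Results that rest on day 8 are therefore given with each pair of libraries as well. In RNA from whole animals, fewer germ cells of a kind and less RNA per cell cannot be told apart.

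The members spanned a wide range of levels. Compared per length of exon in fed young adults, cpg-1 and cpg-2, which encode chondroitin proteoglycans of the eggshell, were highest, at 1272 and 1189 CPM per kb, followed by the vitelline layer gene cbd-1 at 739.7 CPM per kb. In all, 28 of the 47 genes were above 100 CPM per kb and 6 were below 50. The lowest were the synaptonemal complex gene syp-1, at 18.75 CPM per kb, and fbf-2 and fbf-1, which encode PUF-family repressors that keep germline stem cells from entering meiosis, at 20.21 and 22.47 CPM per kb.

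**Figure D1:**
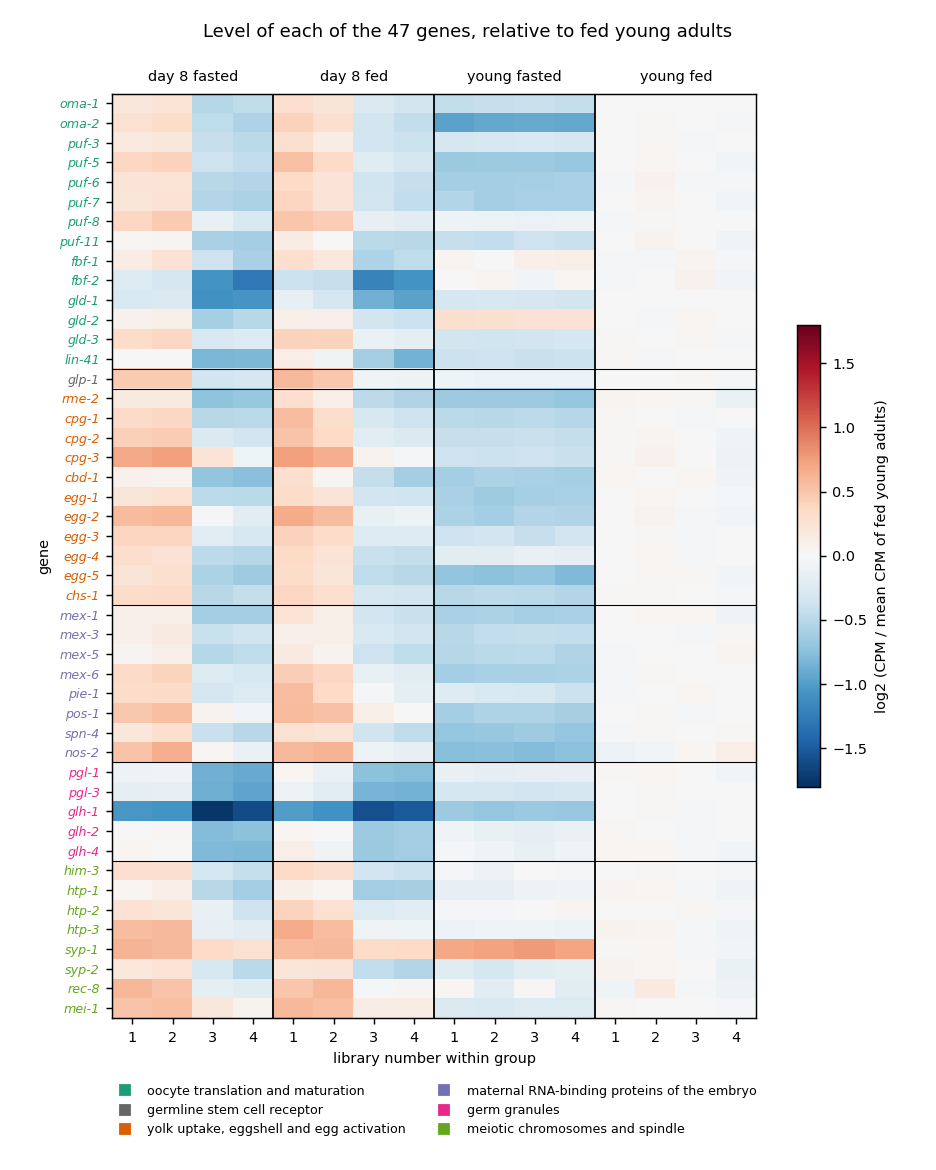
Each row is 1 of the 47 genes, coloured by role, and each column is 1 library. Colour gives the log2 ratio of its level in CPM to the mean of the 4 fed young libraries. Fasted young libraries are blue for most genes and red for syp-1 and gld-2, and in both day 8 groups libraries 1 and 2 are redder than libraries 3 and 4 in all 47 rows.

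In young adults, 6 h without food went with lower levels of many oocyte and maternal messages, while 1 meiotic gene passed the test and was higher. With all 16 libraries in 1 model, 17 of the 47 genes were called lower in fasted than in fed young adults and 1 was called higher, against 21.1% lower and 21.2% higher (42.4% in either direction) among all genes tested (edgeR quasi-likelihood test). The members thus held a larger share of lower calls and a smaller share of higher calls than all genes. The median log2 fold change of the members was -0.38, against 0.03 for all genes tested. The 4 fasted libraries lay wholly below the 4 fed ones for 37 members and wholly above them for 2, where 31.6% and 31.8% of all genes did so (63.4% together). With library totals in place of scaling factors, which moved the median of all genes to 0.24, the counts were 17 lower and 3 higher and the median of the members was -0.18. Of all 17844 genes, 2582 were then called lower and 5461 higher. Under those totals the medians of the germ granule and meiotic genes turned to 0.05 and 0.12 and glp-1 turned to 0.10, while those of the other 3 roles stayed below 0.

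This model estimates the spread of each gene over all 16 libraries, including the divided day 8 ones. Fitted on the 8 young libraries alone, the same test called 38 members lower and 3 higher, where 36.3% and 38.3% of 16139 genes were called. Leaving out fasted or fed day 8 library 4 from the 16 gave 26 lower. Of all genes, 4174 of 17962 and 4121 of 17994 were then called lower. Counts by role below are from the 16-library model, with those from the 8 young libraries beside them. The labels do not state whether the 4 libraries of a group came from separate cultures. By their well codes, fed libraries were in plate rows A to D and fasted ones in rows E to H at both ages. The effects of row and feeding therefore cannot be told apart. The p-values here weigh differences against library spread alone, which may be technical.

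Among the regulators of oocyte translation and maturation, 4 of 14 were called lower, with a median log2 fold change of -0.36. In the 8 young libraries alone 11 were lower and 2, fbf-1 and gld-2, were higher. The member with the smallest adjusted p was oma-2, one of a redundant pair of zinc-finger proteins that oocytes need for meiotic maturation. The gene lies on the plus strand of chromosome V, at 8029439 to 8031214 (WBcel235). It had 222.8, 229.6, 231.8 and 230 CPM in the 4 fasted young libraries, against 438.8, 440.9, 435.1 and 427.8 CPM in the 4 fed ones. All fasted libraries lay near the same level, far below every fed library. The log2 fold change was -0.93 ± 0.21 (SE), adjusted p = 0.00186. Its partner oma-1 had 216.8, 221.4, 224.6 and 220.3 CPM in fasted young adults, against 297.1, 297.3, 293.2 and 294.1 CPM in fed ones, a log2 fold change of -0.42 ± 0.17 with an adjusted p = 0.0586. The groups did not overlap for oma-1 either, but its difference was smaller and did not pass the test.

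The Pumilio-family genes puf-5, puf-6 and puf-7, which act together in oocyte growth, were all called lower. The level of puf-5 was 505.6, 508.3, 510.5 and 499.5 CPM in fasted young adults and 809.1, 821.4, 808 and 772.3 CPM in fed young adults, a log2 fold change of -0.67 ± 0.20 with an adjusted p = 0.0144. That of puf-6 was 129.2, 129.3, 131.7 and 132 CPM in fasted and 195.6, 209, 194.8 and 194 CPM in fed young adults (-0.60 ± 0.19, adjusted p = 0.0179). That of puf-7 was 168.1, 159.4, 162.7 and 162.2 CPM in fasted and 242.1, 251.3, 243 and 236.1 CPM in fed young adults (-0.58 ± 0.20, adjusted p = 0.0279). No library of either group crossed into the other for any of these 3 genes. The call for puf-7 ended when any 1 of the 4 fasted young libraries was left out.

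The remaining regulators differed less. The near-identical genes puf-3 and puf-11 had log2 fold changes of -0.30 ± 0.17 and -0.41 ± 0.16. Values for puf-3 were 336.2, 337.7, 341 and 335.3 CPM in fasted and 417.9, 422.4, 403.9 and 413.2 CPM in fed young adults. Those for puf-11 were 250.6, 245.5, 257.4 and 253.3 CPM in fasted and 335.5, 348, 331.3 and 320.9 CPM in fed young adults. Both were lower in every fasted library, and neither passed the 16-library test. Further members that missed it were lin-41 (-0.38), a regulator that holds growing oocytes back from maturation, gld-3 (-0.33), a partner of the poly(A) polymerase GLD-2, gld-1 (-0.30), a translational repressor of early meiosis, and puf-8 (-0.10).

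The stem cell repressors fbf-1 and fbf-2 stood near 0, at 0.06 ± 0.19 and 0.01 ± 0.22. For fbf-1 the levels were 52.21, 50.5, 54.1 and 54.38 CPM in fasted and 49.99, 50.01, 52.61 and 50.08 CPM in fed young adults, and for fbf-2 they were 46.29, 47.65, 44.85 and 47.2 CPM in fasted and 44.96, 46.31, 48.95 and 44.55 CPM in fed ones. Both pairs of groups overlapped, although with the 8 young libraries alone edgeR called fbf-1 higher (0.078, adjusted p = 0.0356). The poly(A) polymerase gene gld-2 ran the other way, with 400.3, 396.8, 393.8 and 393.9 CPM in fasted young adults, against 327.3, 320.5, 334.3 and 328.9 CPM in fed ones. Every fasted library was above every fed one, the log2 fold change was 0.27 ± 0.15, and the adjusted p was 0.149 in the 16-library model and 2.6e-09 with the 8 young libraries alone. Since gld-2 overlaps genes on the other strand and strand use in counting is not stated, its value is uncertain. The Notch receptor gene glp-1, which keeps germline stem cells dividing, had 295.1, 288.3, 288.8 and 289.2 CPM in fasted and 313.4, 313.7, 314.9 and 303.8 CPM in fed young adults. Its groups did not overlap, but the log2 fold change of -0.10 ± 0.19 did not pass the 16-library test. With the 8 young libraries alone edgeR called glp-1 lower (-0.083, adjusted p = 0.00176).

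All 11 genes of yolk uptake, eggshell and egg activation were lower in every fasted than in every fed young library. The 16-library model called 5 of them, the 8 young libraries alone called all 11, and the median log2 fold change was -0.50. The smallest adjusted p was that of egg-5, a catalytically inactive phosphatase-like protein that controls the egg-to-embryo transition. It had 153.7, 151.5, 153.8 and 145.6 CPM in fasted young adults, against 254, 257.2, 255.1 and 243.2 CPM in fed ones, a log2 fold change of -0.74 ± 0.21 with an adjusted p = 0.0113. Its close copy egg-4 had 214.7, 213.8, 221.9 and 218.1 CPM in fasted and 243.6, 250.7, 238.5 and 243.1 CPM in fed young adults (-0.17 ± 0.20, adjusted p = 0.51). Both copies were lower in every fasted library and 1 passed the test, although counts may have been split unevenly between copies this alike.

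The yolk receptor gene rme-2 had 680.7, 681.9, 680.7 and 658.7 CPM in fasted and 1102, 1097, 1090 and 988.5 CPM in fed young adults (-0.66 ± 0.21, adjusted p = 0.0197). The sperm-binding surface proteins followed the same pattern. For egg-1 the levels were 341.3, 327.8, 337.4 and 338.3 CPM in fasted and 513, 520.7, 504.7 and 498.2 CPM in fed young adults (-0.60 ± 0.18, adjusted p = 0.0145). For egg-2 they were 126.8, 123.3, 129.8 and 128.4 CPM in fasted and 187.9, 196.7, 185 and 180.7 CPM in fed young adults (-0.56 ± 0.19, adjusted p = 0.0278). All 3 genes were lower in each fasted library, and the call for egg-2 ended without any 1 fasted young library or without fed young library 2. The vitelline layer gene cbd-1 was called lower at -0.59 ± 0.20, a call that ended without any 1 fasted young library. Those not called were the chitin synthase gene chs-1 (-0.50), the proteoglycan genes cpg-1 (-0.49), cpg-2 (-0.41) and cpg-3 (-0.38), and egg-3 (-0.37), a cortical scaffold for egg-4 and egg-5.

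The maternal RNA-binding proteins of the embryo were the role with the most calls. In the 16-library model 7 of 8 were lower, in the 8 young libraries alone all 8 were, and the median log2 fold change was -0.58. The smallest adjusted p was that of pos-1, a zinc-finger protein of the posterior blastomeres. It had 361.4, 372.4, 372.2 and 363.5 CPM in fasted young adults, against 545.8, 556.2, 541.8 and 554.5 CPM in fed ones, and its log2 fold change was -0.58 ± 0.14 with an adjusted p = 0.00335. The largest fall was that of nos-2, a Nanos-family gene needed by the embryonic germline, with 60.76, 61.46, 60.01 and 61.76 CPM in fasted and 95.86, 99.65, 105.9 and 112.6 CPM in fed young adults (-0.76 ± 0.18, adjusted p = 0.0036). Fasted libraries of nos-2 were almost level while the fed ones were spread out, and nos-2, on the plus strand of chromosome II at 7065618 to 7067051 (WBcel235), overlaps the gene him-14 on the other strand.

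Anterior determinants fell as well. The level of mex-5 was 547.9, 557.8, 561.4 and 536.2 CPM in fasted and 758.5, 774.8, 781.1 and 803.9 CPM in fed young adults (-0.50 ± 0.15, adjusted p = 0.0131). That of its partner mex-6 was 244.8, 249.4, 248 and 251 CPM in fasted and 364.1, 379.2, 374.6 and 374.2 CPM in fed young adults (-0.59 ± 0.16, adjusted p = 0.00885). Neither gene's groups overlapped. The translational regulator spn-4 (-0.68), the KH-domain protein gene mex-3 (-0.45) and the zinc-finger gene mex-1 (-0.58) were called lower too. The exception was pie-1, which keeps transcription off in the germline founder cells, at -0.29 ± 0.16 with an adjusted p = 0.156.

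Of the germ granule genes, 1 of 5 was called lower in the 16-library model and 4 of 5 in the 8 young libraries alone, with a median of -0.15. The called gene was glh-1, a Vasa-like helicase of P granules, with 526.7, 512.7, 520.3 and 515.6 CPM in fasted young adults, against 836.1, 838.9, 819.8 and 824.8 CPM in fed ones. All fed libraries exceeded all fasted ones by a wide gap, and the log2 fold change was -0.68 ± 0.15 with an adjusted p = 0.00218. Its relative glh-2 had 238.6, 228.7, 222.6 and 230 CPM in fasted and 253.5, 252.3, 244 and 251.9 CPM in fed young adults (-0.12 ± 0.19, adjusted p = 0.618). The granule scaffold gene pgl-1 had 545.5, 537.7, 540.9 and 540.9 CPM in fasted and 609.3, 612.5, 599.4 and 581 CPM in fed young adults (-0.15 ± 0.20). For pgl-3, a second scaffold, the levels were 239.7, 241.3, 233.7 and 242.6 CPM in fasted and 295.1, 302.7, 295.4 and 298.2 CPM in fed young adults (-0.32 ± 0.19). Both scaffolds and glh-2 were lower in every fasted library without passing the 16-library test, and glh-4 was at -0.08 with overlapping groups.

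The meiotic genes gave 1 call, and it was a rise. The gene was syp-1, a central component of the synaptonemal complex that holds paired chromosomes together, on the plus strand of chromosome V at 16404274 to 16407701 (WBcel235). It had 92.77, 94.74, 97.02 and 93.56 CPM in fasted young adults, against 58.05, 58.91, 56.5 and 55.47 CPM in fed ones, a log2 fold change of 0.72 ± 0.08 with an adjusted p = 2.72e-06. Every fasted library was far above every fed one. A second component of the same complex, syp-2, was at -0.23 ± 0.18 and was not called. The axis genes htp-1 and htp-2 were near 0: htp-1 had 71.74, 71.95, 74.6 and 75.41 CPM in fasted and 82.52, 81.51, 78.49 and 75.18 CPM in fed young adults, and htp-2 had 48.64, 48.38, 49.62 and 50.72 CPM in fasted and 49.5, 49.39, 49.7 and 48.03 CPM in fed ones. Both overlapped between groups. The other axis genes him-3 (-0.03) and htp-3 (-0.09), the meiotic cohesin gene rec-8 (-0.08) and the katanin gene of the female meiotic spindle, mei-1 (-0.25), were not called. With the 8 young libraries alone, 3 of the 8 genes were lower in edgeR: htp-1 (-0.095), syp-2 (-0.209) and mei-1 (-0.236, adjusted p = 1.01e-07). The same fit called syp-1 higher (0.742). For syp-2 and mei-1 the fasted libraries lay wholly below the fed ones, at 106.7 to 109 CPM against 126.3 to 130.6 CPM for mei-1.

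**Figure D2:**
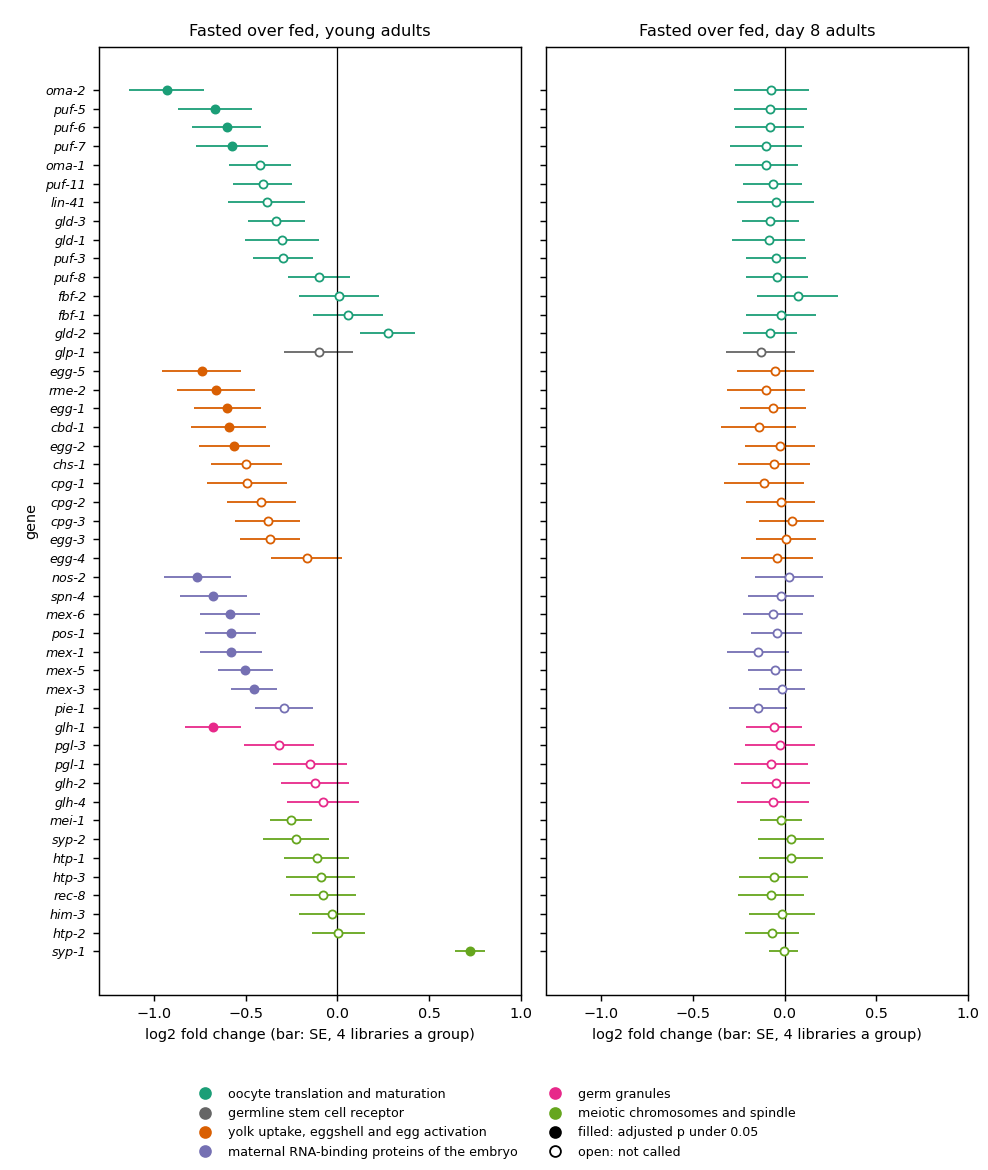
Points give the log2 fold change of fasted over fed animals for each of the 47 genes, with the SE as a bar, in young adults and at day 8. Filled points passed an adjusted p of 0.05 in the 16-library model: 17 lower and 1 higher in young adults, and 0 at day 8.

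Markers of other cells moved in the same young libraries. The summed level of 21 sperm genes was 607.2 to 623.8 CPM in fasted young adults and 346.9 to 353.3 CPM in fed ones. Of these 21 genes, 11 were called higher, and 18 lay wholly higher in fasted libraries, with none listed at 0 in a young library. Markers of zygotic embryos summed to 11.89 to 13.53 CPM in fasted and 19.69 to 22.74 CPM in fed young adults, and 2 of the 12 tested (of 14 listed) were called lower, with 1 to 3 listed at 0 in each library. The 4 gonadal sheath markers summed to 112.1 to 113.1 CPM in fasted and 112.7 to 118.9 CPM in fed young adults, with 0 called and 0 at an unadjusted p under 0.05 in edgeR. Most of the embryo difference was in tbx-9, which averaged 8.364 CPM in fasted and 16.08 CPM in fed young adults. The 5 intestinal markers summed to 379.7 to 396.8 CPM in fasted and 951.9 to 1015 CPM in fed young adults, with 2 called higher (ges-1 and ifb-2) and 1 lower. The lower one was act-5, which averaged 72.36 CPM in fasted and 803.5 CPM in fed young adults. The 4 body wall muscle markers were wholly higher in fasted libraries, at sums of 11290 to 12180 CPM in fasted and 9217 to 10130 CPM in fed young adults, but none was called, with 1 at an unadjusted p under 0.05 in edgeR. The 4 hypodermal markers summed to 1913 to 1938 CPM in fasted and 2524 to 2727 CPM in fed young adults, with 0 called and 1 lower at an unadjusted p under 0.05 in edgeR. The 6 neuronal ones summed to 375.9 to 382.4 CPM in fasted and 290.2 to 300.1 CPM in fed young adults, with 1 called higher and 1 lower. Most of the neuronal difference was in egl-3, which averaged 191.9 CPM in fasted and 112.8 CPM in fed young adults, while 2 of the 6, unc-119 and rab-3, were lower. What part these cells have in the members' differences was not tested.

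At day 8, fasting moved none of the 47 genes past the test. edgeR called 0 higher and 0 lower, DESeq2 called 0 in either direction, and 0 had an unadjusted p under 0.05 in the 16-library model without a block, while edgeR called 0.37% of all genes (0.151% higher, 0.219% lower). Fasted and fed libraries overlapped for every member, where 2.28% of all genes did not overlap (1.15% higher, 1.13% lower). The median log2 fold change was -0.06, against -0.01 for all genes, and the SE of a single gene ranged from 0.08 to 0.22. For the genes that fell most in young adults, the day 8 values were -0.07 ± 0.20 for oma-2, 0.02 ± 0.18 for nos-2, -0.05 ± 0.21 for egg-5 and -0.06 ± 0.15 for glh-1, and for syp-1 the value was -0.01 ± 0.08. In fasted day 8 animals oma-2 had 527.8, 550.1, 316.4 and 296.3 CPM, against 578.4, 532, 347.2 and 321.9 CPM in fed ones. For syp-1 the levels were 87.23, 85.42, 73 and 69.1 CPM in fasted and 84.94, 85.57, 72.01 and 73.54 CPM in fed day 8 animals. In both genes the groups overlapped throughout, and libraries 1 and 2 were high and libraries 3 and 4 low in both feeding states.

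Fasted and fed libraries were also compared by number. The fasted library was below its fed partner in all 4 pairs for gld-3, glp-1, mex-1 and pie-1, 4 genes of 47, where 11.3% of all genes were so ordered, and in 3 of 4 pairs for 29 more. It was above in all 4 pairs for 0 members, where 9.73% of all genes were. With the replicate number as a block, over all libraries or within each age, 0 members were called in edgeR. Of all 17844 genes, the block over all libraries called 15 higher and 32 lower, and the block within each age 167 and 347. At an unadjusted p under 0.05 the block within each age had 18 members lower and 0 higher, and the block over all libraries had 0. How many of all genes had such a p was not counted, so these 18 cannot be set against a share. With day 8 libraries 3 and 4 alone, 14 members were called lower (28 at an unadjusted p under 0.05) and 0 higher, where 6.73% and 2% of all genes were, and with libraries 1 and 2 alone the counts were 0 and 0 (2 lower and 1 higher at an unadjusted p under 0.05), where 1.3% and 0.548% were.

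The response to fasting in young adults was set directly against that at day 8 by the difference of both log2 fold changes. Here 3 members were called lower, which means a more negative response in young adults, and 1 was called higher, where 12.6% and 13.4% of all genes were called (26.1% in either direction). Both are smaller shares than those of all genes. The 3 lower ones were oma-2 at -0.86 ± 0.29 (adjusted p = 0.0393), nos-2 at -0.79 ± 0.26 (adjusted p = 0.0356) and glh-1 at -0.62 ± 0.22 (adjusted p = 0.0459). The higher one was syp-1 at 0.73 ± 0.11 (adjusted p = 0.000162). Leaving out any 1 fasted young library, or fasted day 8 library 1 or 2, ended all 3 calls of lower, and leaving out fasted day 8 library 4 or fed day 8 library 1 raised the count to 12. It was 10 without fasted day 8 library 3, 6 without fed day 8 library 2 and 1 without any 1 fed young library. Of all genes, 2714 were called lower without fasted day 8 library 4 and 2649 without fed day 8 library 1. Without fasted day 8 library 3 they were 2568, and without fed day 8 library 2 they were 2707. The all-gene count was 1931 to 1983 without 1 fasted young library and 2085 to 2115 without 1 fed one. Without fasted day 8 library 1 or 2 it was 1998 or 2122. The call of syp-1 held in all 16 such fits.

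**Figure D3:**
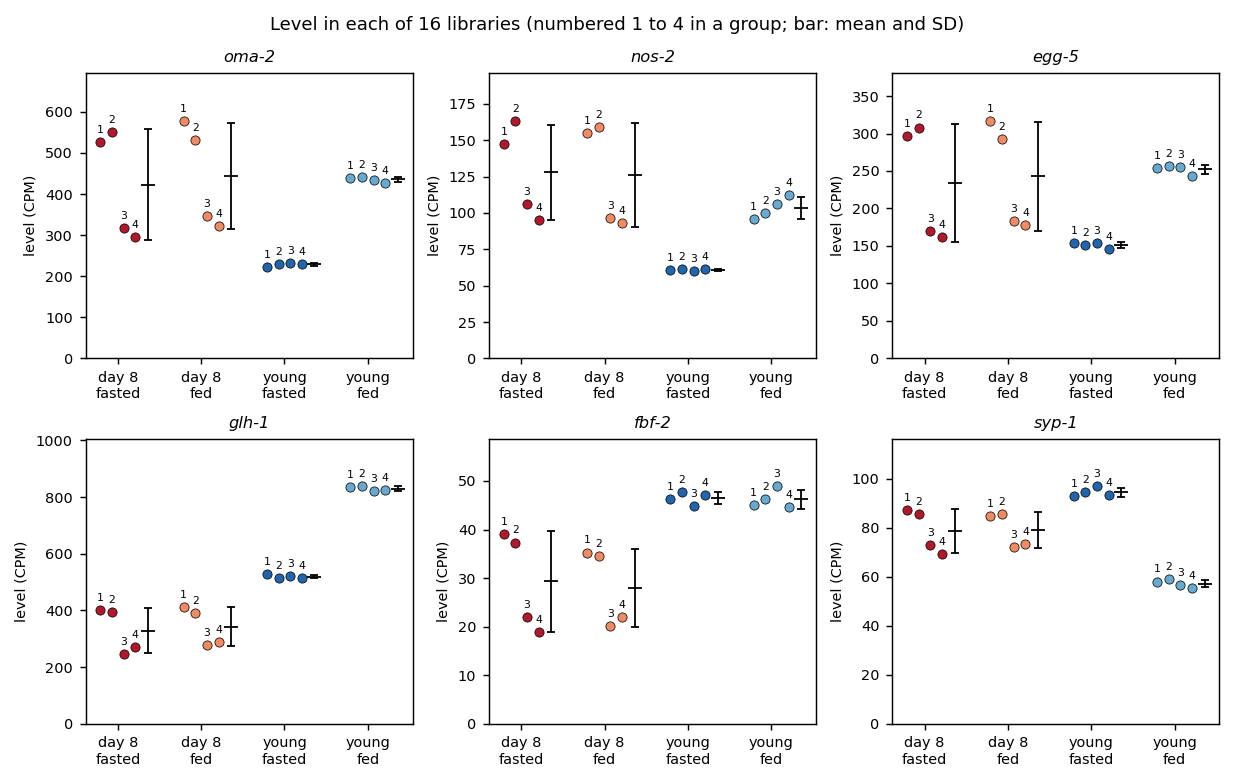
Dots give the level in CPM of 6 genes in each of the 16 libraries, numbered 1 to 4 in a group, with the group mean and SD as a bar. In young adults the 4 fasted libraries lie below the 4 fed ones for oma-2, nos-2, egg-5 and glh-1, above them for syp-1 and among them for fbf-2, while at day 8 libraries 1 and 2 lie above libraries 3 and 4 in every panel.

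Because day 8 libraries fell into 2 pairs, the difference was also fitted with each pair in place of all 4. With libraries 1 and 2, 31 members were called lower and 2 higher, where 24.5% and 20.6% of all genes were called. With libraries 3 and 4, 32 were lower and 3 higher, where 23.6% and 24.2% were. The same 31 genes were lower in both fits and the same 2 higher. By role, the genes lower in both were 10 of 14 oocyte regulators, 10 of 11 genes of yolk uptake, eggshell and egg activation, 7 of 8 maternal RNA-binding proteins, 2 of 5 germ granule genes and 2 of 8 meiotic genes. With the replicate number as a block, the 16-library model called 7 lower and 1 higher, and with a block within each age it called 32 lower and 2 higher. Of all 17844 genes, the block over all libraries called 2701 lower and 2594 higher, and the block within each age 4847 and 4204. The counts of calls in this comparison therefore depend on how the day 8 spread enters the model, while the median difference stayed between -0.46 and -0.13 under every alternative run.

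The division among day 8 libraries ran through the whole list. All 47 members were lower in libraries 3 and 4 than in libraries 1 and 2, in fasted and again in fed animals, whereas 31.1% of all genes were lower in both and 32.7% were higher in both. The median member stood at 0.614 times the mean of libraries 1 and 2 in fasted animals and at 0.63 times in fed animals. On the log2 scale these medians were -0.70 and -0.67, against 0.13 over all genes in each feeding state. In fasted animals the steepest was fbf-2, at 0.536 times (0.601 times in fed animals), and in fed animals it was cpg-1, at 0.588 times. The shallowest was syp-1, at 0.823 times in fasted and 0.854 times in fed animals. By role, the medians in fasted animals ran from 0.577 for glp-1 to 0.652 for both the maternal RNA-binding proteins and the meiotic genes.

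Other features of the libraries went with this division. Libraries 3 and 4 had 20363 to 20764 genes with a count above 0, against 18993 to 19300 in libraries 1 and 2. The intestinal marker sum in day 8 animals ran from 98.35 to 199.2 CPM when fasted and from 142.9 to 248.3 CPM when fed, and it was higher in libraries 3 and 4. The zygotic embryo marker sum ran the other way. It was 56.4 and 58.94 CPM in fasted libraries 1 and 2 and 45.49 and 44.59 CPM in fasted libraries 3 and 4. In fed libraries it was 56.92 and 58.17 CPM in 1 and 2, and 48.66 and 45.07 CPM in 3 and 4. Among these markers the spread was widest in tbx-9 and ref-1, at 18.14 ± 3.96 and 6.724 ± 2.76 CPM in fasted day 8 animals (mean ± SD). There tbx-37 was at 5.544 ± 0.195 and tbx-38 at 7.012 ± 0.224 CPM. In fed day 8 animals these genes, in the same order, were at 17.62 ± 4.82, 6.799 ± 2.39, 6.185 ± 1.26 and 7.663 ± 0.731 CPM. In fasted day 8 animals the sum of the 21 sperm genes overlapped between pairs. It was 40.99 and 39.69 CPM in libraries 1 and 2, and 40.05 and 43.59 CPM in 3 and 4. In fed day 8 animals it was 39.04 and 39.29 CPM in libraries 1 and 2, and higher in 3 and 4, at 47.33 and 41.53 CPM. The labels do not say what sets libraries 1 and 2 apart from libraries 3 and 4, and the part of any of these features in the members' levels was not tested.

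Day 8 animals were then compared with young adults. By the well codes in the labels, the ages were kept in separate columns of the plate, and the effects of column and age cannot be told apart. In fasted animals 18 members were called higher at day 8 and 4 lower, where 31.2% and 36.9% of all genes were called (68.1% in either direction), and the median log2 fold change was 0.33, against -0.05 for all genes. That count of 18 was 9 without fasted day 8 library 1 or 2, 28 without library 3 and 29 without library 4. Of all genes, 5269, 5347, 5944 and 5916 were called higher without libraries 1, 2, 3 and 4 in turn. In fed animals 3 were called higher and 4 lower, where 30.8% and 34.7% of all genes were (65.4% in either direction), and the median was -0.00, against -0.01. Without fed day 8 library 3 or 4 there were 8 or 10 higher and 2 lower in fed animals, and 6 were higher without fasted day 8 library 3 or 4. Of all genes, 5862 or 5877 were higher and 5858 or 5862 lower without fed day 8 library 3 or 4. Without fasted day 8 library 3 or 4, 6117 or 6161 were higher. With all 16 libraries, the shares of higher and of lower calls in fed animals are both smaller than those of all genes. In fasted animals the share of lower calls is smaller. Day 8 and young libraries did not overlap for 20 members in fasted animals (16 higher, 4 lower), where 64.7% of all genes did not (28% higher, 36.6% lower). In fed animals 6 members did not overlap (2 higher, 4 lower), where 61.9% of all genes did not (27.7% higher, 34.2% lower). The 9 higher calls in fasted animals that held with each of the 16 libraries left out were oma-2, puf-5, cpg-3, egg-2, mex-6, pos-1, spn-4, nos-2 and mei-1. Both comparisons differ in which young libraries they use, and the fasted ones are those in which most members were low.

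The genes that were lower at day 8 in both feeding states were glh-1 and fbf-2. The helicase gene glh-1 had 400.8, 393.9, 246.3 and 272.2 CPM in fasted day 8 animals, against 526.7, 512.7, 520.3 and 515.6 CPM in fasted young adults, a log2 fold change of -0.66 ± 0.15 with an adjusted p = 0.00127. In fed animals it had 411.4, 391.7, 276.1 and 289.8 CPM at day 8, against 836.1, 838.9, 819.8 and 824.8 CPM in young adults (-1.28 ± 0.15, adjusted p = 2.41e-06). Every day 8 library, of either pair, was below every young library. The stem cell repressor gene fbf-2, on the minus strand of chromosome II at 6088863 to 6091480 (WBcel235), had 39.07, 37.32, 22 and 18.92 CPM in fasted day 8 animals, against 46.29, 47.65, 44.85 and 47.2 CPM in fasted young adults (-0.67 ± 0.22, adjusted p = 0.0139). In fed animals it had 35.26, 34.53, 20.03 and 21.92 CPM at day 8, against 44.96, 46.31, 48.95 and 44.55 CPM in young adults (-0.73 ± 0.22, adjusted p = 0.00861). Again no day 8 library reached the young range.

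Its relative fbf-1 had 55.36, 60.66, 39.13 and 33.87 CPM in fasted day 8 animals and 62.19, 57.67, 34.57 and 37.01 CPM in fed ones, on both sides of the young range. It was not called in fasted (-0.16 ± 0.19) or fed animals (-0.08 ± 0.19). The repressor gene gld-1 was called lower in fed animals (-0.53 ± 0.20, adjusted p = 0.0305) and was at -0.31 ± 0.20 in fasted ones. Its levels were 1084, 977.5, 656.4 and 615.7 CPM in fed day 8 animals, against 1202, 1200, 1210 and 1192 CPM in fed young adults. All fed day 8 libraries were lower. The call ended without fed day 8 library 3 or 4, and in 5 of the 28 alternative fits in all. The granule scaffold gene pgl-3 was also called lower in fed animals (-0.46 ± 0.19, adjusted p = 0.0465). That call ended in 10 of 16 fits that left out a library, and in 15 of the 28 alternative fits in all. In fasted animals gld-2 was called lower, with 345.4, 351.7, 217.3 and 231.7 CPM at day 8 and 400.3, 396.8, 393.8 and 393.9 CPM in young adults (-0.47 ± 0.15, adjusted p = 0.0112). All day 8 libraries of gld-2 were below the young ones in that state, and the call ended in 1 of the 28 alternative fits.

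Among meiotic genes, syp-1 was lower at day 8 in fasted and higher in fed animals, although with library totals in place of scaling factors it was at 0.05 in fasted animals. In fasted animals it had 87.23, 85.42, 73 and 69.1 CPM at day 8, against 92.77, 94.74, 97.02 and 93.56 CPM in young adults (-0.26 ± 0.08, adjusted p = 0.0084). In fed animals it had 84.94, 85.57, 72.01 and 73.54 CPM at day 8, against 58.05, 58.91, 56.5 and 55.47 CPM in young adults (0.47 ± 0.08, adjusted p = 9.94e-05). Its day 8 levels thus lay between those of fed and fasted young adults, without overlap with either. The spindle gene mei-1 was higher at day 8 in both states. It had 183.5, 187.1, 148 and 134.8 CPM in fasted day 8 animals, against 107.4, 106.7, 108.4 and 109 CPM in fasted young adults (0.60 ± 0.12, adjusted p = 0.000251). In fed animals it had 193.3, 186.4, 140.8 and 141.5 CPM at day 8, against 130.6, 128.5, 129.2 and 126.3 CPM in young adults (0.36 ± 0.11, adjusted p = 0.0109). All day 8 libraries of mei-1 exceeded the young ones of the same feeding state.

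Of the maternal RNA-binding proteins, 5 of 8 were called higher in fasted animals. The smallest adjusted p was that of pos-1, with 767.2, 801.3, 573.8 and 529.3 CPM in fasted day 8 animals, against 361.4, 372.4, 372.2 and 363.5 CPM in fasted young adults (0.86 ± 0.14, adjusted p = 5.07e-05). In fed animals pos-1 had 819.1, 795.8, 592.4 and 548.6 CPM at day 8, against 545.8, 556.2, 541.8 and 554.5 CPM in young adults, and fed day 8 library 4 lay within the young range. Its log2 fold change there was 0.33 ± 0.14 with an adjusted p = 0.05, a call that ended in 10 of 16 fits that left out a library. The largest of these rises was that of nos-2, with 147.1, 163.4, 105.9 and 95.26 CPM at day 8, against 60.76, 61.46, 60.01 and 61.76 CPM in young adults (1.07 ± 0.18, adjusted p = 0.000101). The other calls were mex-6 (0.68), spn-4 (0.62) and mex-3 (0.35), with mex-1 (0.37), mex-5 (0.32) and pie-1 (0.35) not called. For mex-5 the fasted levels were 806.5, 835.4, 547.5 and 565.8 CPM at day 8, and for mex-6 they were 473.1, 493.2, 315.9 and 304.9 CPM. Fed day 8 animals had 869.8, 815, 602 and 568.6 CPM of mex-5 and 507.2, 485, 340.9 and 324.6 CPM of mex-6.

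In fasted animals 7 of the 11 genes of yolk uptake, eggshell and egg activation were called higher at day 8, and the other 4 were above 0 without passing the test. The smallest adjusted p was that of cpg-3, a chondroitin proteoglycan gene, with 469.5, 487.4, 346.6 and 278.1 CPM in fasted day 8 animals, against 224.9, 224.4, 226.9 and 222.2 CPM in fasted young adults (0.82 ± 0.18, adjusted p = 0.000797). All day 8 libraries were above all young ones. The others called were egg-2 (0.84), egg-5 (0.63), cpg-2 (0.53), egg-1 (0.53), chs-1 (0.49) and egg-3 (0.48). Values in fasted day 8 animals were 593.8, 615.9, 368.6 and 364.5 CPM for egg-1 and 277.6, 284.3, 183.2 and 163.1 CPM for egg-2. In fed day 8 animals they were 639.6, 596.7, 399.2 and 397.9 CPM for egg-1 and 299.4, 278.5, 170.4 and 175.9 CPM for egg-2. The 4 not called were cpg-1 (0.49), rme-2 (0.46), cbd-1 (0.32) and egg-4 (0.12), and in fed animals edgeR called 0, with 1 gene, cpg-3 (0.40), at an unadjusted p under 0.05, while DESeq2 called cpg-3 and egg-2 higher.

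Of the oocyte regulators, 5 were higher in fasted animals. The smallest adjusted p was that of oma-2, with 527.8, 550.1, 316.4 and 296.3 CPM in fasted day 8 animals, against 222.8, 229.6, 231.8 and 230 CPM in fasted young adults (0.89 ± 0.20, adjusted p = 0.00127). In fed animals oma-2 was at 0.03 ± 0.20. Its partner oma-1, at 0.33 ± 0.17 in fasted and 0.01 ± 0.17 in fed animals, was not called, and its levels were 339.6, 351.9, 207.6 and 214.5 CPM in fasted and 363.4, 347.9, 246.4 and 235.5 CPM in fed day 8 animals. The other calls were puf-5 (0.71), puf-6 (0.51), puf-7 (0.48) and gld-3 (0.41). In fasted day 8 animals puf-5 had 1036, 1070, 618.3 and 590.3 CPM, puf-6 232.1, 235.2, 140.6 and 138.1 CPM and puf-7 283.9, 290.9, 169.3 and 164.1 CPM. In fed day 8 animals puf-5 had 1152, 1015, 693.3 and 643.3 CPM, puf-6 253.3, 233.3, 155.4 and 148.1 CPM and puf-7 318, 284.6, 193.2 and 179 CPM. Libraries 1 and 2 of these genes were high and libraries 3 and 4 low in each state. The copies puf-3 (0.20 in fasted, -0.05 in fed animals) and puf-11 (0.16 and -0.18) were not called. In fasted day 8 animals puf-3 had 469.4, 479, 310.3 and 294.8 CPM and puf-11 337.8, 345.3, 222.9 and 217.5 CPM. In fed day 8 animals puf-3 had 507.1, 456, 325.6 and 317.8 CPM and puf-11 367.2, 335.7, 238.1 and 235.4 CPM. Members that passed in neither age comparison, beside those already given, included puf-8, lin-41 and glp-1, at 0.24, 0.04 and 0.23 in fasted animals and 0.18, -0.30 and 0.26 in fed ones.

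The other germ granule and meiotic genes passed in neither age comparison. In fasted animals pgl-1 was at -0.27, glh-2 at -0.20 and glh-4 at -0.26, and in fed animals they were at -0.35, -0.28 and -0.27. Day 8 levels were 561.5, 577.5, 329.7 and 321.2 CPM in fasted and 616.9, 553.9, 359.8 and 353 CPM in fed animals for pgl-1. For pgl-3, at -0.17 in fasted animals, they were 266.7, 269.7, 161.6 and 154.7 CPM in fasted and 275.7, 260.3, 167.3 and 165 CPM in fed animals. For glh-2 they were 249.6, 253.6, 145.9 and 150.5 CPM in fasted and 255.6, 250.5, 158.9 and 162.2 CPM in fed animals. In all 3 genes libraries 3 and 4 were the low ones. The axis gene htp-1 had 81.63, 86.59, 56.4 and 51.79 CPM in fasted and 84.89, 81.03, 51.53 and 52.49 CPM in fed day 8 animals, and htp-2 had 58.93, 57.39, 44.78 and 37.81 CPM in fasted and 64.68, 59.42, 41.51 and 43.28 CPM in fed ones. The log2 fold changes of him-3, htp-1, htp-2, htp-3, syp-2 and rec-8 lay between -0.09 and 0.34 in fasted and between -0.24 and 0.31 in fed animals.

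All members called across age in the 16-library model were called in the same direction with either pair of day 8 libraries. The fits with 1 pair made more calls, and many of these differed between pairs. In fed animals 37 members were higher with libraries 1 and 2, but 3 with libraries 3 and 4, where 36.7% and 39.4% of all genes were called higher. Members lower were 4 with libraries 1 and 2 and 33 with libraries 3 and 4, where 38.8% and 38% of all genes were. As many as 23 genes were called higher with the one pair and lower with the other, among them 9 of the 11 genes of yolk uptake, eggshell and egg activation and 8 of the 14 oocyte regulators. The genes called the same way with both pairs were pos-1, syp-1 and mei-1, which were higher, and fbf-2, gld-1, pgl-3 and glh-1, which were lower.

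In fasted animals 40 members were higher and 4 lower with libraries 1 and 2, where 36.5% and 42.5% of all genes were, and 20 were higher and 18 lower with libraries 3 and 4, where 38% and 38.3% were. Here 20 genes were higher with both pairs, 8 of 11 of yolk uptake, eggshell and egg activation, 6 of 8 maternal RNA-binding proteins, 5 of 14 oocyte regulators and 1 of 8 meiotic genes. Lower with both were fbf-2, gld-2, glh-1 and syp-1. Each pair's log2 fold changes for nos-2 were 1.34 with libraries 1 and 2 and 0.81 with libraries 3 and 4. For pos-1 they were 1.08 and 0.67, and for glh-1 they were -0.40 and -0.91, in the same order of pairs. All 5 germ granule genes were lower with libraries 3 and 4 in fasted and in fed animals. With all 16 libraries and library totals in place of scaling factors, 4 of the 5 were above 0 in each feeding state. Their medians were then 0.04 in fasted and 0.15 in fed animals, against 0.28 and 0.51 for all genes.

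**Figure D4:**
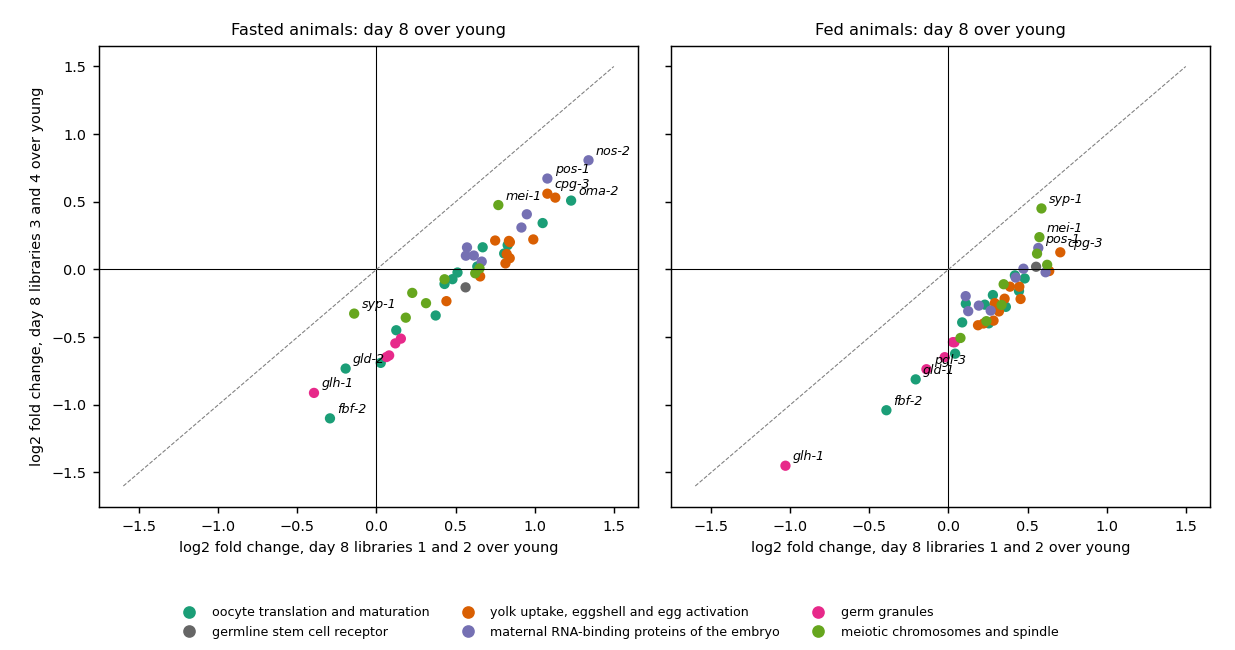
Each point is 1 of the 47 genes, with the log2 fold change of day 8 over young animals computed with day 8 libraries 1 and 2 on the x axis and with libraries 3 and 4 on the y axis, for fasted and for fed animals. All points lie below the dashed line of equal values, and genes to the right of 0 and below 0 are higher with one pair and lower with the other.

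The age comparison also depends on how libraries are scaled to each other. Using library totals with no scaling factors moved the median log2 fold change of all genes to 0.28 in fasted and 0.51 in fed animals, and that of the members to 0.63 in fasted and 0.50 in fed animals. Relative to all genes, the members thus stayed above in fasted and level in fed animals. The split of calls moved with it, to 36 higher and 2 lower in fasted and 39 higher and 1 lower in fed animals. Of all 17844 genes, library totals called 7950 higher and 5045 lower in fasted and 9410 and 4118 in fed animals. RLE scaling gave 6 higher and 2 lower members in fed animals, where 6346 and 5679 of all genes were called. Under library totals glh-1 stayed called lower in both states, at -0.36 in fasted and -0.77 in fed animals. The call of fbf-2 held in fasted animals at -0.38 but ended in fed animals, at -0.23 (edgeR adjusted p = 0.188).

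Ratios of related genes within a library do not depend on scaling. They were added after the levels were seen, for 11 pairs in 4 comparisons, and describe the pattern. The ratio of oma-2 to oma-1 was 1.03, 1.04, 1.03 and 1.04 in fasted young libraries and 1.48, 1.48, 1.48 and 1.45 in fed ones. At day 8 it was 1.55, 1.56, 1.52 and 1.38 in fasted and 1.59, 1.53, 1.41 and 1.37 in fed libraries. Fasted young adults alone were low, and both day 8 groups were near the fed young adults. The ratio of egg-5 to egg-4 followed the same order, at 0.7 ± 0.021 in fasted and 1.03 ± 0.029 in fed young adults and 0.99 ± 0.048 in fasted and 1 ± 0.015 in fed day 8 animals (mean ± SD, n = 4 each).

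For 2 other pairs the groups stood in another order. The ratio of glh-1 to glh-2 was 1.66 ± 0.11 in fasted and 1.67 ± 0.1 in fed day 8 animals, and 2.26 ± 0.056 in fasted and 3.31 ± 0.037 in fed young adults. Age went with a lower share of glh-1 in both feeding states, while fasting did so in young adults only. The ratio of fbf-2 to fbf-1 was 0.61 ± 0.069 in fasted and 0.58 ± 0.014 in fed day 8 animals, against 0.88 ± 0.048 in fasted and 0.91 ± 0.02 in fed young adults. It was lower at day 8 whatever the feeding state, in both library pairs. The ratio of egg-2 to egg-1 was 0.47 ± 0.021 in fasted and 0.45 ± 0.02 in fed day 8 animals, against 0.38 ± 0.0056 in fasted and 0.37 ± 0.0065 in fed young adults. That of mex-6 to mex-5 was 0.57 ± 0.024 in fasted and 0.58 ± 0.013 in fed day 8 animals, against 0.45 ± 0.012 in fasted and 0.48 ± 0.0099 in fed young adults, so both were higher at day 8.

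Exact permutation tests of 4 against 4 libraries cannot go below a two-sided p of 0.0286, and with 44 comparisons none of the adjusted p-values was under 0.05. For the ratios named here the lowest raw p of 0.0286 became 0.0547 after adjustment, both for the young fasting differences of oma-2 to oma-1, egg-5 to egg-4 and glh-1 to glh-2 and for the day 8 differences of fbf-2 to fbf-1 in both feeding states. For the oocyte genes puf-5, puf-6 and puf-7 the ratios shifted less: puf-5 to puf-7 was 3.1 ± 0.078 in fasted and 3.3 ± 0.037 in fed young adults, and puf-6 to puf-7 was 0.8 ± 0.022 in fasted and 0.82 ± 0.014 in fed ones. Where copies are near-identical, the split of counts between them is uncertain.

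**Figure D5:**
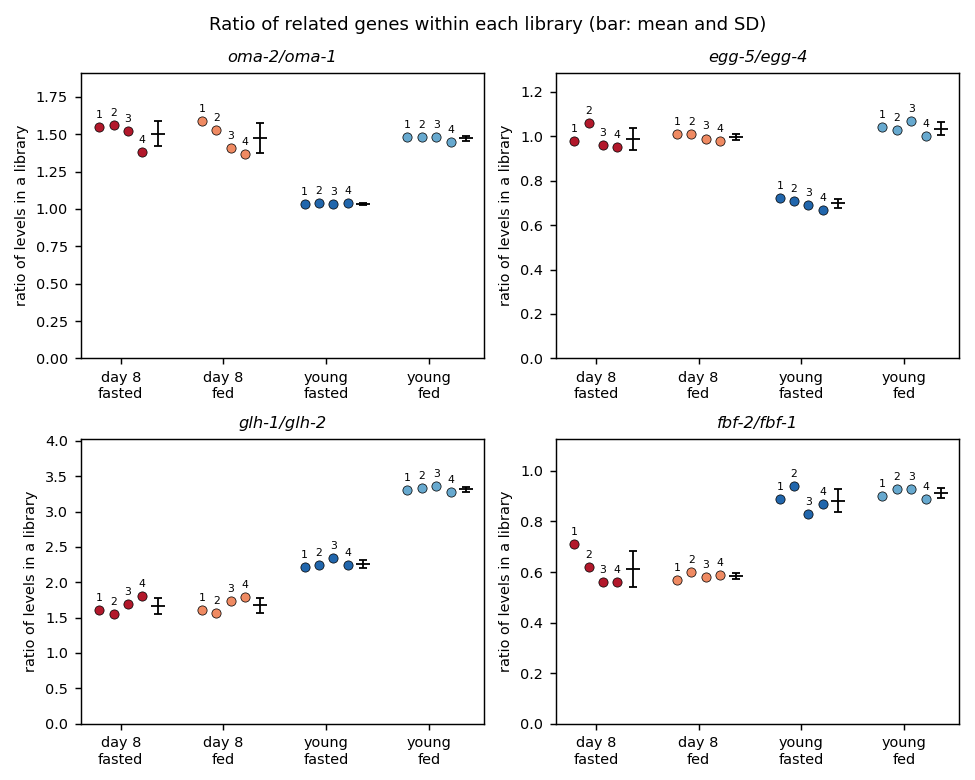
Dots give the ratio of the levels of 2 related genes within each of the 16 libraries, with the group mean and SD as a bar. Fasted young adults stand below the other 3 groups for oma-2 to oma-1 and egg-5 to egg-4, and both day 8 groups stand lowest for glh-1 to glh-2 and fbf-2 to fbf-1.

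Between ages, markers of other cells moved too. All 21 sperm genes were called lower at day 8 in fasted and in fed animals, with up to 4 listed at 0 in a day 8 library. Zygotic embryo markers summed to 44.59 to 58.94 CPM in fasted and 45.07 to 58.17 CPM in fed day 8 animals, above the young sums given earlier, with 11 of 12 tested called higher in fasted and 8 of 12 in fed animals. The body wall muscle markers summed to 446.9 to 736.7 CPM in fasted day 8 animals, against 11290 to 12180 CPM in fasted young adults, and to 490.4 to 926.6 CPM in fed day 8 animals, against 9217 to 10130 CPM in fed young adults. All 4 muscle genes were called lower in both states. The hypodermal markers summed to 18.97 to 60.41 CPM in fasted and 25.87 to 65.16 CPM in fed day 8 animals, below the young sums, with 2 called higher (dpy-7 and rol-6) and 1 lower (col-19) in each state. The intestinal sums at day 8 were below the young ones as well, with 1 marker called higher and 3 lower in fasted animals and 1 higher and 4 lower in fed ones. The neuronal markers summed to 285.2 to 331.8 CPM in fasted and 287.7 to 351.2 CPM in fed day 8 animals, with 2 called higher and 4 lower in fasted and 2 higher and 2 lower in fed animals. The 4 sheath markers summed to 122.2 to 136.7 CPM in fasted and 128 to 133.4 CPM in fed day 8 animals, with 2 called higher and 1 lower in fasted and 3 higher and 1 lower in fed animals. Their part in the age differences of the members was not tested.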

How the data were processed

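The authors deposited a table of expected counts per gene for 16 libraries, a unit named here from the values, which are not whole and differ in total between libraries. The submitters' processing notes name DESeq and, as build, WBcel235. Which aligner and counter were used is not given in these sources. The 47 genes were matched by symbol through the WBcel235 annotation. Whether counting used strand is not stated. Of the 47, 14 overlap a gene on the other strand (puf-3, puf-6, fbf-1, gld-2, glp-1, cpg-3, egg-1, egg-3, mex-1, pie-1, spn-4, nos-2, him-3, mei-1) and are uncertain for that reason.

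Counts were rounded, filtered with filterByExpr (17844 genes kept, 4038 removed) and scaled by TMM. All 16 libraries entered 1 edgeR 4.0.16 model (R 4.3.3) with a mean per group, and the quasi-likelihood test was adjusted over all genes tested with the Benjamini-Hochberg method. A gene is called at an adjusted p under 0.05. The 5 contrasts set fasted against fed animals at each age, the young minus the day 8 response, and day 8 over young in fasted and in fed animals. CPM use TMM-scaled totals, and CPM per kb divides by exon length. The steps were tested on simulated counts. No replicate pair was as alike as sampling noise, and none was merged.

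The members, lists and rule for named genes were chosen with earlier results of these data known. The rule gives every library's value for the called gene with the smallest adjusted p of each role and direction, and for related pairs. Library values of other genes (nos-2, rme-2, glp-1, gld-1, gld-2 in young adults), perm-2 and perm-4 and the ratios were chosen after values were seen. Deviations of same-numbered libraries correlated at 0.329 to 0.564 at day 8 and at -0.00458 to 0.0399 in young adults, which meets the criterion for pairing (every same-numbered pair over 0.1) at day 8 only. At day 8, libraries of the same set but with different numbers correlated as much, at 0.359 to 0.666, so the correlation follows the sets of libraries 1 and 2 and of 3 and 4, not the single numbers. Alternatives were RLE scaling, library totals, no filter, DESeq2 1.42.0, halved counts, a replicate block, a covariate for the share of an rRNA pseudogene, other sets of libraries and leaving out each library.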

Additional observations from a re-analysis of the deposited data

Results flagged for a closer look

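Of 188 sets of 4 libraries (47 genes in 4 groups), 7 held a library far from the other 3, and chance alone marks about 1 in 20 such sets. The fed young library 2 was high for puf-6, at 209 CPM, and the fed young library 3 was high for fbf-1, at 52.61 CPM, and low for glh-2, at 244 CPM. The fed young library 4 was low for glp-1, at 303.8 CPM, and for rme-2, at 988.5 CPM. The fasted young library 1 was high for glp-1, at 295.1 CPM, and the fasted young library 4 was low for rme-2, at 658.7 CPM. All 7 values are from young libraries. At day 8, libraries 3 and 4 lay below libraries 1 and 2 for all 47 genes. The rule looks for 1 library apart from the other 3, so the lack of day 8 marks says little.

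The response to fasting differed between ages by a test of the difference itself for 4 genes (edgeR). The young minus day 8 difference was -0.86 on the log2 scale for oma-2 (adjusted p = 0.0393), -0.79 for nos-2 (adjusted p = 0.0356), -0.62 for glh-1 (adjusted p = 0.0459) and 0.73 for syp-1 (adjusted p = 0.000162).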

How the results depend on the processing

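No called gene turned its direction in young fasting under the alternatives run, and 14 of the 17 lower calls and the 1 higher call were kept in all of them. The numbers of calls moved most. In young fasting, library totals alone gave 3 higher, with a median of -0.18 for the members and 0.24 for all genes. Library totals called 5461 higher and 2582 lower of all 17844 genes there. Dropping day 8 libraries 3 and 4 gave 2 higher and 38 lower, dropping 1 and 2 gave 2 and 39, the 8 young libraries alone 3 and 38, and summing each day 8 pair, chosen after seeing the data, 2 and 26. Of all genes, dropping libraries 3 and 4 called 6147 higher and 5744 lower, and dropping 1 and 2 called 6251 and 5874. Summing each pair called 4474 and 4326. For day 8 fasting, dropping libraries 1 and 2 gave 14 lower. For the response difference, lower calls were 6 with DESeq2, 5 with halved counts, 0 with the rRNA pseudogene share as covariate, and 2 higher and 5 lower with library totals. Of all genes, these fits called 2733, 2506, 1677 and 1699 lower in that order, and library totals called 3567 higher. Dropping day 8 libraries 3 and 4 gave 2 higher and 31 lower there, and dropping 1 and 2 gave 3 and 32.

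In fed animals across age, RLE scaling gave 6 higher and 2 lower, library totals 39 and 1 (median 0.50), DESeq2 8 higher, the covariate 2 lower, dropping day 8 libraries 3 and 4 37 higher (median 0.31) and dropping 1 and 2 33 lower (median -0.26). In fasted animals library totals gave 36 and 2 (median 0.63), dropping libraries 3 and 4 gave 40 higher (median 0.62) and dropping 1 and 2 gave 18 lower (median 0.0224). Of all 17844 genes, library totals called 9410 higher and 4118 lower in fed animals and 7950 and 5045 in fasted ones. In fed animals RLE scaling called 6346 and 5679, DESeq2 6468 and 5664, and the covariate 5157 and 5924. The cause of these shifts in counts was not tested.

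A replicate block over all libraries gave 26 lower in young fasting and 7 lower in the response difference. Of all 17844 genes that fit called 4256 lower in young fasting and 2701 lower in the response difference. A replicate block within each age gave 2 higher and 39 lower in young fasting and 2 higher and 32 lower in the response difference, and it was not run for the age contrasts, where it is nested in age. Of all genes the block within each age called 5799 higher and 5821 lower in young fasting, and 4204 and 4847 in the response difference. Day 8 libraries of 1 set correlated about as much with different numbers as with the same, so the pairing by number is not established. It changed no other count of calls by over 1.5 times.

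Leaving out each library in turn gave 14 to 26 lower and 1 to 2 higher in young fasting (median -0.38 to -0.36), 0 to 12 lower and 1 to 1 higher in the response difference (median -0.46 to -0.20), and 0 to 0 in day 8 fasting (median -0.19 to 0.07). In fed animals across age it gave 2 to 10 higher and 2 to 6 lower (median -0.15 to 0.15), and in fasted animals 9 to 29 higher and 4 to 4 lower (median 0.21 to 0.46). Fasted animals had 9 higher without fasted day 8 library 1 or 2, 28 without library 3 and 29 without library 4. Fed animals had 8 and 10 higher without fed day 8 library 3 and 4, and 26 lower in young fasting came without fasted or fed day 8 library 4. Of all genes, fits without 1 library called 3231 to 4174 lower in young fasting and 1931 to 2714 lower in the response difference. Across age they called 5215 to 6161 higher in fed animals and 5175 to 6114 higher in fasted animals.

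Reversals of a gene called under either setting were all across age. In fed animals library totals turned puf-3 to 0.46, puf-6 to 0.49, puf-11 to 0.32, fbf-1 to 0.41, gld-2 to 0.40, rme-2 to 0.39, cbd-1 to 0.37, egg-1 to 0.50, egg-4 to 0.49, egg-5 to 0.44, mex-1 to 0.43, mex-3 to 0.42, mex-5 to 0.38, spn-4 to 0.46, pgl-3 to 0.0434, htp-1 to 0.27 and syp-2 to 0.41. Dropping day 8 libraries 3 and 4 turned puf-3 to 0.23, puf-6 to 0.31, fbf-1 to 0.26, gld-2 to 0.11, rme-2 to 0.22, cbd-1 to 0.19, egg-1 to 0.29, egg-4 to 0.32, egg-5 to 0.29, mex-1 to 0.19, mex-3 to 0.11, mex-5 to 0.13, spn-4 to 0.27 and syp-2 to 0.24. Dropping libraries 1 and 2 turned oma-1 to -0.19, oma-2 to -0.28, puf-5 to -0.16, puf-7 to -0.28, cpg-1 to -0.22, cpg-2 to -0.13, egg-3 to -0.13, chs-1 to -0.22 and him-3 to -0.26. In fasted animals library totals turned syp-1 to 0.0541, dropping libraries 3 and 4 turned fbf-1 to 0.13, pgl-3 to 0.15, glh-2 to 0.12 and htp-1 to 0.19, and dropping 1 and 2 turned puf-3 to -0.0716, puf-11 to -0.11, lin-41 to -0.34, glp-1 to -0.13, egg-4 to -0.23, him-3 to -0.25 and htp-2 to -0.17. All 47 genes passed the filter on low counts in libraries of at least 58.4 M counts.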

Other observations

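Genes with related functions that are outside the 47 were tested as lists in the same model. Of 12 other germ granule genes, 5 were called lower and 0 higher in fasted young adults, with the granule-forming genes meg-3 (-0.78 ± 0.17 on the log2 scale, adjusted p = 0.00156), meg-1 (-0.77 ± 0.18, adjusted p = 0.00297) and meg-2 (-0.54 ± 0.14, adjusted p = 0.00491) leading. Means were 46.4 ± 1.1 CPM in fasted and 79.8 ± 2.1 CPM in fed young adults for meg-3 (SD, n = 4 each). Of 18 other oocyte regulators 4 were lower and 0 higher, and of 30 other meiotic genes 3 were lower and 0 higher. Among all genes tested, 21.1% were lower and 21.2% higher. Fasted young libraries lay wholly below fed ones for 14 of the 18 and 17 of the 30, and wholly above for 2 in each list. Of all genes, 31.6% lay wholly below and 31.8% wholly above. At day 8, fasting gave 0 calls in these lists, with 1 of their genes, an eggshell one, at an unadjusted p under 0.05 in edgeR.

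Of the 13 other eggshell genes, 4 were called lower and 2 higher in fasted young adults, where 21.1% and 21.2% of all genes were. By sign 11 were below 0 and 2 above, with a median of -0.22. Fasted libraries lay wholly below fed ones for 10 and wholly above for 2, where 31.6% and 31.8% of all genes did so. The most extreme in each direction were cpg-7 and cpg-9. In fasted young adults cpg-7 was higher at 48.2 ± 1.4 CPM, against 10.4 ± 0.8 CPM in fed ones (2.21 ± 0.10, adjusted p = 7.79e-11), and cpg-9 was lower at 13.03 ± 0.096 CPM, against 66.4 ± 3.4 CPM (-2.35 ± 0.14, adjusted p = 1.8e-09). Both bear chondroitin proteoglycan names. Across age, cav-1, a caveolin gene of the germline and embryo, had 501 ± 129 CPM in fasted day 8 animals, against 7.64 ± 0.91 CPM in fasted young adults (6.04 ± 0.27, adjusted p = 2.22e-11). In fed animals it had 497 ± 168 CPM at day 8, against 8.70 ± 0.98 CPM in young adults (5.84 ± 0.26, adjusted p = 3.36e-11). The permeability barrier gene perm-4 was higher at day 8 in fasted (0.91 ± 0.07) and in fed animals (0.92 ± 0.07), and perm-2 likewise (0.90 ± 0.07 and 0.65 ± 0.07).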
